A study of Mus musculus with 6 samples.

Results

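Genes of the interferon response and of innate nucleic acid sensing were examined in undifferentiated mouse embryonic stem cells (mESCs) with and without Alkbh1, which encodes a dioxygenase of the AlkB family. The question was whether single differences among these genes, such as that of Xaf1, belonged to a response shared by the group. The list held 46 genes, taken by symbol, by gene identifier where a gene had been renamed, or by an older alias. Of these, 40 were named on the arrays, by 66 of 33142 probe sets (a probe set is the group of short probes that measures 1 transcript), and each was followed through its probe set of highest mean signal. The probe set annotation named no probe set for Irf2, Oas1a, Oas3, Oasl2, Mx1 or Tlr3.

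Both groups were C57BL/6 mESCs at passage 8 and day 0 of differentiation, grown with leukemia inhibitory factor (LIF) on irradiated CF-1 mouse embryonic fibroblasts as feeder cells, with no treatment. The WT group and the Alkbh1-/- group had 3 arrays each, and each genotype was represented by 1 line code, from blastocyst-stage embryos of heterozygous matings, so that genotype and line cannot be told apart. No interferon, viral or nucleic acid stimulus was applied. The values were of 2 kinds. The mean signal is the authors' log2 mean over all 6 arrays. The group mean is the authors' geometric mean intensity in each genotype, given only for probe sets that the authors' own class comparison listed. No values of single arrays were analysed here, so the group means carry no error, no test was possible, and whether the arrays of the groups overlapped is unknown. In bulk cultures, fewer cells of a type and less RNA per cell cannot be told apart.

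In infected cells, cytosolic sensors such as RIG-I (Ddx58) and MDA5 (Ifih1) recognize foreign RNA and signal through the mitochondrial adaptor MAVS and the kinase TBK1 to IRF3 and IRF7, which switch on interferon genes. Secreted interferon binds its receptors, and a complex that holds STAT2 and IRF9 then activates interferon-stimulated genes through a promoter element built of paired GAAA cores. Pluripotent stem cells are known for a weak interferon response, and some antiviral genes, among them the Ifitm genes, are active in them without interferon.

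The genes with group means differed in both directions. The 3 receptors and the 6 transducers and transcription factors of the list had no group means, as was so for most genes of the array. Of the 40 genes, 8 had group means (20%), against 2248 of 15276 genes over the whole array (14.7%). Xaf1 and Mavs were higher in Alkbh1-/- cells, and Ifitm3, Ifitm1, Bst2, Gbp2, Ifit2 and Psmb9 were lower. Past a 1.5-fold ratio, 2 genes were higher and 4 were lower. Counted over every probe set of the 40 genes, 5 probe sets were past it in each direction. Over all genes with group means, 31.8% were past 1.5-fold higher and 33.4% past 1.5-fold lower. The median log2 ratio of the 8 genes was −0.60, and that of all 2248 genes was −0.44. The class comparison selected its probe sets on a nominal p-value, and no listed ratio was nearer to 1 than 1.29-fold. These counts therefore describe a selected set. For the brightest probe sets of the other 32 genes no genotype value was available.

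**Figure D1:**
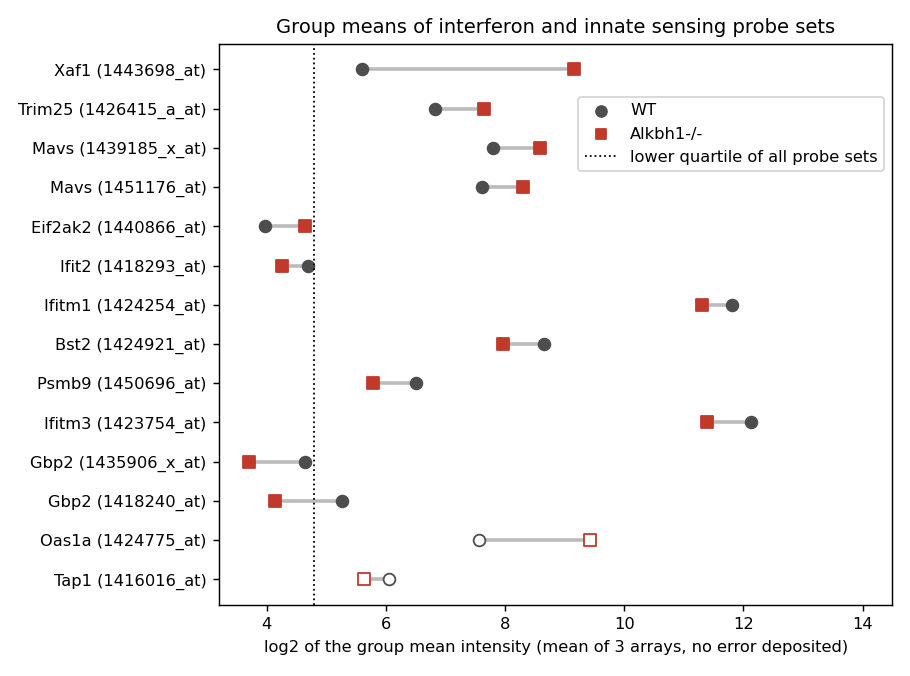
Log2 of the group mean intensity in WT (circles) and Alkbh1-/- (squares) mESCs for every probe set of the listed genes with group means. Filled symbols are probe sets found by the rule, and open symbols are 2 named only by a second annotation. No error bars are drawn because single arrays were not analysed. Xaf1 has the widest gap, from 48.4 to 569 in intensity, while Ifitm1, Ifitm3, Bst2, Gbp2 and Ifit2 lie lower in Alkbh1-/- cells.

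The targeted gene was checked first. The brighter Alkbh1 probe set (1434660_at) had a group mean of 761 in WT and 25.7 in Alkbh1-/- cells, and the other (1438681_at) had 120 and 34.6. The value of 25.7 lies under the lower quartile of all probe sets (27.8 in intensity), so no fold is given. Whether these probes lie in the deleted part was not checked here. The lines also differed in Eif2s3y, a Y-linked gene, whose group mean was 751 in WT and 14.9 in Alkbh1-/- cells. Ddx3y, another Y-linked gene, had a log2 ratio of −4.87. Every genotype difference given here is therefore also one between lines unlike in Y-linked signal, and these cannot be told apart. X-linked genes were not examined as a set. All 8 pluripotency markers examined had a mean signal of 10.05 or more on the log2 scale, far above the median over all probe sets (6.31).

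Over the list, 18 of 40 genes (45%) had a mean signal at or above that median, against 62.0% of all genes, and 13 (32.5%) lay under the lower quartile of all probe sets (4.80 on the log2 scale, or 27.8 in intensity), against 18.2%. The receptors of type I interferon, Ifnar1 and Ifnar2, had mean signals of 7.18 and 7.53, and the interferon gamma receptor chain Ifngr1 had 6.76. All 3 lay above the median of all probe sets, and none had group means. Among the transducers and transcription factors, the dsRNA-pathway factor Irf3 (8.49) and its relative Irf1 (8.44) gave the highest mean signals, and Irf9, the DNA-binding part of that complex with STAT2, gave 7.01. Stat2 was lower, at 5.68. Irf7, which amplifies interferon production, gave 4.28, and Irf8, a factor of myeloid cells, gave 4.84. Irf7 was the only one of these 6 under the lower quartile. Signals of different probe sets depend on the probes as well as on the transcripts, so these values do not rank the genes by abundance.

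The sensors and adaptors fell into a bright and a dim set. Trim25, the ubiquitin ligase that acts on RIG-I, had a mean signal of 10.55, the kinase Tbk1 9.56, and Ddx58 itself 9.33. Ifih1 gave 4.73, the RIG-I-like regulator Dhx58 gave 3.91 and Zbp1, a sensor of Z-form nucleic acids, gave 4.73, and all 3 lay under the lower quartile. Mavs, the adaptor on which both RNA sensors converge, was the sensing gene with group means, and its mean signal was 8.20. Its brighter probe set (1439185_x_at) had a group mean of 224 in WT and 386 in Alkbh1-/- cells, 1.73-fold higher. The x in its identifier marks probes that also match other transcripts. The other Mavs probe set (1451176_at) had 196 and 316, 1.61-fold higher. Both probe sets of Mavs were thus higher in the same line. Trim25 is less settled, because a dimmer probe set (1426415_a_at) had 113 in WT and 200 in Alkbh1-/- cells, 1.77-fold higher, while its brighter probe sets, with mean signals of 10.55 and 10.08, had no group means.

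**Figure D2:**
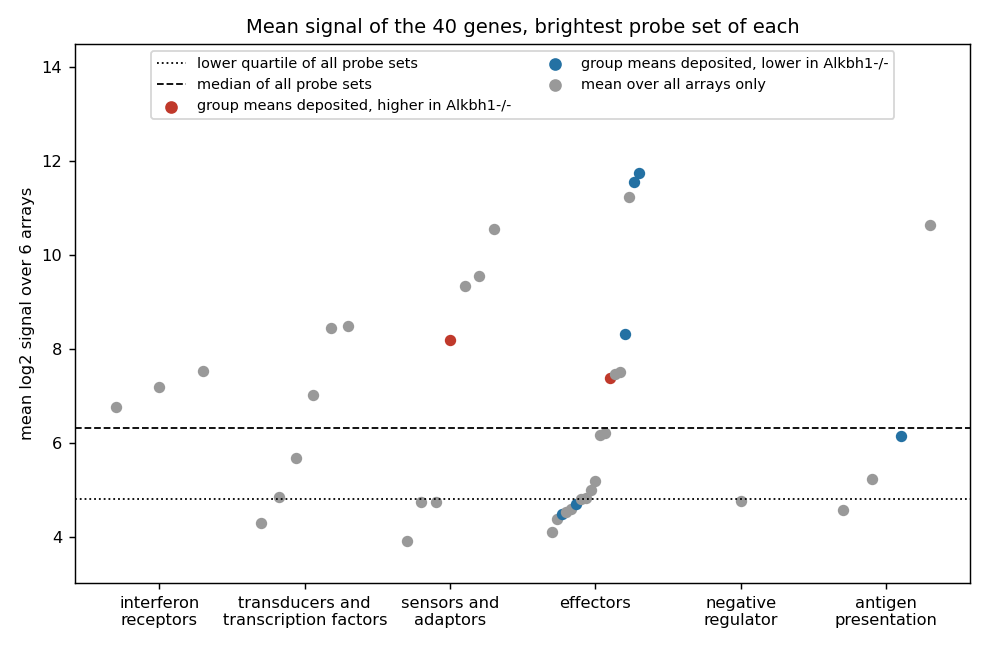
Mean log2 signal over 6 arrays of the brightest probe set of each of the 40 genes, grouped by role and sorted within a role. The dotted and dashed lines mark the lower quartile (4.80) and the median (6.31) of all probe sets, and colour marks the genes with group means. The receptors lie above the median, while 7 of 19 effectors lie under the lower quartile.

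Xaf1, a pro-apoptotic antagonist of the inhibitor of apoptosis XIAP and itself an interferon-stimulated gene, stood apart from the other effectors. Its group mean (1443698_at) was 48.4 in WT and 569 in Alkbh1-/- cells, 11.8-fold higher, or a log2 ratio of 3.55. This was the 9th highest ratio among the 2248 genes with group means. A second Xaf1 probe set (1443621_at) had a mean signal of 4.48, under the lower quartile, and no group means. The difference in Xaf1 therefore rests on 1 probe set.

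Most classical markers of an interferon response, like most genes of the array, had no group means. Oas1a, known only through a second annotation and described with it, was the exception that was higher together with Xaf1, and Ifit2 was lower. Isg15, a ubiquitin-like modifier, had a mean signal of 6.21, and Ifit1, which binds viral RNA ends, had 4.51. Ifit3 gave 4.79, Rsad2 (viperin) 5.19, Oas2 6.15, Oasl1 4.82 and Mx2, a dynamin-like GTPase, 4.38. None of these 7 had group means, which 14.7% of all genes had. Of the 7, 3 lay under the lower quartile, against 18.2% of all genes. Isg20, an exonuclease, gave 4.58, the guanylate-binding protein Gbp3 gave 4.10, and Parp14 gave 4.99. Usp18, which removes ISG15 and damps receptor signalling, gave 4.75. Adar, the RNA-editing enzyme, gave 7.47. For Eif2ak2, the dsRNA-activated kinase PKR, the brightest probe set gave 7.50 and had no group means. Its dimmest probe set (1440866_at) had 15.7 in WT and 24.8 in Alkbh1-/- cells, both under the lower quartile. An absent group mean does not show that a gene was equal in the genotypes.

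Ifitm3, Ifitm1 and Bst2, antiviral effectors of high signal, were lower in Alkbh1-/- cells. Ifitm3, a membrane protein that blocks virus entry and has a known expression in early germ cells, had a group mean of 4471 in WT and 2684 in Alkbh1-/- cells, 1.67-fold lower. Ifitm1 had 3567 and 2516, 1.42-fold lower. Ifitm2 had a mean signal of 11.24 and no group means, so its direction is unknown. Bst2 (tetherin), which holds budding virus at the cell surface, had 404 in WT and 249 in Alkbh1-/- cells, 1.62-fold lower. The Ifitm genes and Bst2 were thus among the brightest 10 genes of the list.

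Gbp2 and Ifit2 were lower too, but at low signal. Gbp2 (1418240_at) had a group mean of 38.2 in WT and 17.7 in Alkbh1-/- cells, 2.16-fold lower. Its second probe set (1435906_x_at) had 24.9 and 13.1, 1.90-fold lower. Ifit2 had 25.9 in WT and 19.1 in Alkbh1-/- cells, 1.36-fold lower. Both Ifit2 values and 3 of the 4 Gbp2 values lay under the lower quartile of all probe sets (27.8).

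**Figure D3:**
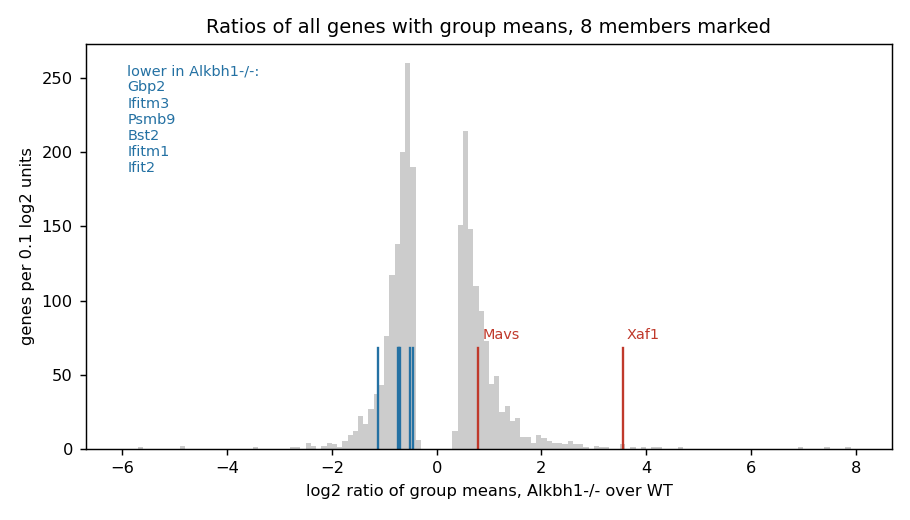
Number of genes by log2 ratio of the group means, Alkbh1-/- over WT, for the 2248 genes with group means (grey, brightest probe set of each), with the 8 interferon and innate sensing genes as vertical lines. The gap around 0 comes from the selection of the listed probe sets. Xaf1 (3.55) lies in the right tail, and the lower genes lie between −1.11 and −0.44.

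Among the antigen presentation genes, Psmb9, an interferon-inducible subunit of the immunoproteasome, had a group mean of 90.5 in WT and 55.2 in Alkbh1-/- cells, 1.64-fold lower. Its partner subunit Psmb8 had a mean signal of 5.22 and no group means. B2m, the light chain of MHC class I, had 10.64 and no group means. For Tap1, the peptide transporter, the probe set found by the rule (1448177_at), named through an older alias, had a mean signal of 4.57 and no group means.

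A second annotation, the one in the table of group means, named 2 more probe sets. Oas1a, a dsRNA-activated oligoadenylate synthetase, had through it (1424775_at) a group mean of 190 in WT and 687 in Alkbh1-/- cells, 3.62-fold higher. Tap1 (1416016_at) had 66.1 and 49.5, 1.33-fold lower. This annotation covers listed probe sets only, so it could add none but selected ones. With both counted, 3 genes were past 1.5-fold higher and 4 past 1.5-fold lower.

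To show how the genes differ in the element that interferon acts on, promoter windows were read from RefSeq (GRCm38.p6), from 250 bases before to 50 bases after each transcription start. Sequences are written 5′ to 3′ on the strand of the gene, and capitals mark pairs of GAAA cores spaced by any 2 bases (GAAANNGAAA) on either strand. Bst2 and Gbp2 are shown as genes lower in Alkbh1-/- cells, and Isg15 and Ifit1 as classical interferon-stimulated genes without group means. For Ifitm3 the match lies in the first bases after the start. Xaf1 has no exact pair, and its capitals mark 2 overlapping stretches in which 1 of the 8 core bases differs. Such looser stretches are not marked in the other genes, though Gbp2 and Ifit1 hold some in the bases shown. With 1 core base allowed to differ, 38.9% of all genes with a window held a match.
Xaf1, chr11:72301529-72301628, plus strand: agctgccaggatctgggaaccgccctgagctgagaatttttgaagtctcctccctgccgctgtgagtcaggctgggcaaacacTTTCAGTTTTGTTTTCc
Bst2, chr8:71537563-71537622, minus strand: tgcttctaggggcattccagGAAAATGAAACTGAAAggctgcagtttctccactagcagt
Gbp2, chr3:142620573-142620632, plus strand: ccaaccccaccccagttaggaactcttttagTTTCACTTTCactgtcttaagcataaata
Ifitm3, chr7:141010715-141010744, minus strand: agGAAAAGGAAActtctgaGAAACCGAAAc
Isg15, chr4:156200859-156200908, minus strand: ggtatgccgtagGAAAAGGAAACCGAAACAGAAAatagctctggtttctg
Ifit1, chr19:34640774-34640823, plus strand: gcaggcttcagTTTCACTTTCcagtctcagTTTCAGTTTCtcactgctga

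The exact pair was present in 17 of the 39 listed genes with a window (43.6%), against 1079 of 27025 genes (3.99%). The gamma-activated site TTCNNNGAA, an element of the interferon gamma response that can overlap these pairs, was in 13 of 39 (33.3%), against 9.55% of all genes. A gene with several starts was counted once if any window held the letters. Of the 8 genes with group means, Bst2, Gbp2 and Ifitm3 held the exact pair, and all 3 were lower in Alkbh1-/- cells. Xaf1, Mavs, Ifitm1, Ifit2 and Psmb9 held none in these windows. Oas1a, higher through the second annotation, held 2 exact pairs. The lower genes thus included some with and some without the exact pair. Of Xaf1, Mavs and Oas1a, only Oas1a held it, and its name rests on the second annotation, chosen after seeing the data. Isg15, with 3 pairs, and Ifit1 and Ifit3, with 2 each, had no group means. No match says only that these letters are not in the window.

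The wider pathway was looked at through 63 further genes of interferon signalling, sensing and response, of which 55 had a named probe set. Of these, 11 had group means, with 1 higher and 10 lower in Alkbh1-/- cells. Over the whole array 14.7% of genes had group means, 1067 of them higher and 1181 lower. The list was chosen with earlier results of these data known, so its split of 1 and 10 is no independent support for a direction. Ube2l6, the conjugating enzyme that attaches ISG15, was the higher one, with a group mean of 3806 in WT and 9060 in Alkbh1-/- cells, 2.38-fold higher. This probe set is also of the x kind, and it carries the name only through an older alias, while the second annotation names no gene for it. The Ube2l6 probe set named by gene identifier had 11.8 and 38.9, at low signal. Among the lower genes, Helz2 had 33.0 and 17.7, the latter under the lower quartile (27.8). Parp12 had 164 and 94.8, and Dtx3l, a ubiquitin ligase that partners PARP9, had 180 and 105. Lgals3bp had 121 and 71.7, and Ifngr2, the second chain of the interferon gamma receptor, had 64.2 and 40.1. Pml, the organizer of nuclear bodies, had 680 and 448. The remaining lower genes were Ifi27 (167 and 114), Trim21 (56.8 and 39.2), the immunoproteasome subunit Psmb10 (343 and 237) and the MHC class I gene H2-K1 (528 and 381). Past 1.5-fold, 1 of the 11 was higher and 6 were lower, where 31.8% and 33.4% of all genes with group means were. The median log2 ratio of the 11 was −0.60, against −0.44 over all genes with group means. The interferon genes Ifnb1 and Ifna4 had mean signals of 3.92 and 3.96, and the chemokine gene Cxcl10, a common reporter of the response, had 4.60, all under the lower quartile and without group means. The receptor kinases Jak1 and Tyk2 gave 9.10 and 7.50, also without group means.

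**Figure D4:**
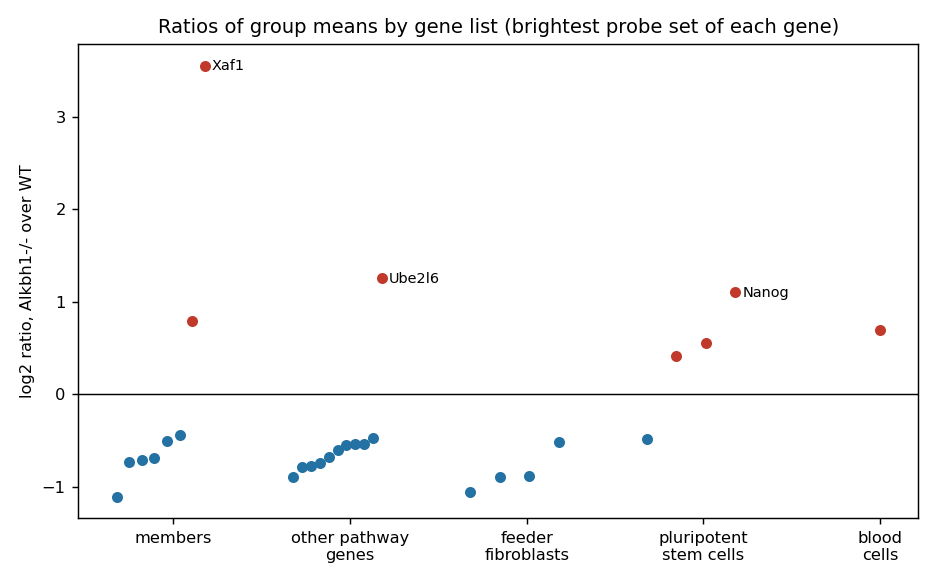
Log2 ratio of the group means, Alkbh1-/- over WT, for every gene whose brightest probe set had group means. The genes are those of the interferon and innate sensing list (members), the other pathway genes and 3 lists of cell type markers. Points above 0 are higher in Alkbh1-/- cells, and no errors are available. In both interferon lists most points lie below 0, while Xaf1, Mavs and Ube2l6 (named through an older alias) lie above. Over the whole array, 1181 of 2248 genes with group means were lower. The lists were chosen with earlier results known, so their split is no independent support for a direction. All 4 feeder fibroblast markers shown lie below 0.

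Markers of the feeder cells with group means were lower in Alkbh1-/- cells. Of 10 fibroblast markers, all were named on the arrays with mean signals from 6.21 to 11.82, above the lower quartile of all probe sets. Group means of the brightest probe set were given for 4, and all 4 were lower in Alkbh1-/- cells. Col3a1 had 2002 in WT and 1087 in Alkbh1-/- cells, Col1a1 had 527 and 253, Fbn1 had 297 and 160, and Thy1 had 123 and 85.7. Summed over the 4, the intensity was 2950 in WT and 1586 in Alkbh1-/- cells, with a median log2 ratio of −0.89. Col1a2 had group means for a dimmer probe set, 1019.9 in WT and 488 in Alkbh1-/- cells, and none for its brightest. Vim, Postn, Pdgfrb, Dcn and Lum had none for any probe set. The part of feeder RNA in the lower values of Ifitm3, Ifitm1, Bst2, Gbp2, Ifit2 and Psmb9 was not tested. The part of feeder RNA in the higher values of Xaf1, Mavs and Oas1a was not tested either. Of 8 markers of macrophages and other blood cells, 5 were named on the arrays, with mean signals from 4.72 to 7.44, and 1 had group means. This was Cd68, a lysosomal protein, with 106 in WT and 172 in Alkbh1-/- cells, and its part in the higher values was not tested. Of the pluripotency markers, 4 had group means, and Nanog, with 3852 in WT and 8267 in Alkbh1-/- cells, 2.15-fold higher, was the highest in ratio. Esrrb and Zfp42 were higher too, and Utf1 was lower, with 1522 and 1087.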

How the data were processed

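Gene expression was measured on mouse Affymetrix arrays, 3 of WT and 3 of Alkbh1-/- mESCs. The authors normalized all arrays with RMA and deposited, for 33142 probe sets, log2 values that include the mean over all arrays. A second deposited table, a class comparison of 7320 filtered probe sets, gives the authors' geometric mean intensity of each genotype for 4326 entries. In its class names the WT label differs from that of the arrays, and the description deposited with the tables gives it as a mislabelling. Columns of the authors' own comparison (differences, folds, test statistics, p-values and adjusted p-values) were not used. Array files were not analysed here, so the planned limma fit could not be run.

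Identifiers in the second table stand beside the values of other probe sets, so entries were paired by value. The mean of the log2 group means had to equal the log2 mean over all arrays within 0.000001. This paired 4232 entries with 1 probe set each, 8 of them under the same identifier, and the identifiers of all 4232 occur elsewhere in that table. Another 29 entries matched several probe sets and 65 matched none, and both kinds were left out. The pairing was tested on simulated data.

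Names came from the symbol, then the gene identifier, then a unique older alias of RefSeq, for 28185 probe sets (85.0%). The signal of a gene is that of its brightest probe set. Named with values were all genes with group means, the brightest 10 and dimmest 5, and genes whose probe sets differed, besides further members given by role. The members and lists were chosen with earlier results of these data known. Replicate arrays are not stated to be separate cultures. Promoters were searched in 32851 RefSeq windows. Alternatives covered the choice of probe set, pairing, fold, signal threshold and motif. Python 3.11.15, pandas 2.3.3, numpy 2.4.6 and matplotlib 3.10.9 were used.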

Additional observations from a re-analysis of the deposited data

How the results depend on the processing

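The median mean signal of the 40 genes was 6.15 (log2). It was 5.40 with the mean over all probe sets of a gene and 5.91 with probe sets without a suffix where a gene has one. Of these genes, 18 (45%) reached the median over the array, against 62.0% of all genes. Its upper quartile was reached by 9, for which no share over all genes was taken. The median log2 ratio of −0.60 was −0.47 with the mean over all probe sets with group means, −0.58 with a 10 times tighter pairing tolerance and −0.41 with pairing by identifier. The tighter tolerance left 4 of the 8 genes with group means. Under pairing by identifier Gbp2 reversed to 0.73, and Xaf1 was 0.91 in place of 3.55. That pairing joins the values of other probe sets, since 8 of 4232 paired entries carry their own identifier. At 1.5-fold, 2 of the 8 genes were higher and 4 lower, where 31.8% and 33.4% of all genes with group means were. At 2-fold, 1 gene was higher (Xaf1) and 1 lower (Gbp2). With every probe set counted, 5 probe sets were past 1.5-fold higher and 5 past 1.5-fold lower. No share over the whole array was taken at 2-fold or over every probe set, so those counts are not read as a direction. With 1 core base allowed to differ, 74.4% of the listed genes and 38.9% of all genes held a paired GAAA motif. Naming by the second annotation was chosen after seeing the data.

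No paired analysis was possible because single arrays were not analysed here. For the same reason the replicate block, the variance trend and the leaving out of single arrays were not run. With 3 arrays a genotype, the group means are of limited precision. Signals under the lower quartile (27.8 in intensity) limit Gbp2, Ifit2, the dim probe sets of Eif2ak2 and Ube2l6, and Helz2 and Alkbh1 in Alkbh1-/- cells.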

Other observations

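The genes beside Xaf1 were looked at after its value was seen. In the order of RefSeq genes, Slc13a5, a citrate transporter gene, comes just before Xaf1. Its group mean was 48.6 in WT and 259 in Alkbh1-/- cells, a log2 ratio of 2.41. Smtnl2, the 3rd gene after Xaf1, had 297 and 468. Txndc17, Med31, 4930563E22Rik, Tekt1 and Ggt6 had no group means, and Fbxo39 had no named probe set. Why neighbouring Slc13a5 and Xaf1 were both higher was not tested.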
